A study of Rattus norvegicus with 24 samples.

Results

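The effect of inhaled PCB 52 that female and male rat livers have in common was measured by joining the count tables of both sexes by gene identifier and comparing exposed with sham animals across them. Sham animals carried numbers 1 to 12 in the sample titles and exposed animals numbers 13 to 24, so 12 exposed livers were set against 12 sham livers, and all 24 libraries of the series took part. Each of the 4 groups, defined by sex and by sham or PCB 52 treatment, held 6 Sprague-Dawley rats, an outbred stock, and 1 bulk RNA library per rat. PCB 52 was inhaled in a nose-only system for 4 hours a day on 28 days, with females aged 42 days and males aged 39 days at the start, and what the sham animals breathed is not given in the sources used here. The effect reported below is the mean of the exposed-minus-sham log2 difference in females and in males, each sex having equal weight. The animal numbers of sham and exposed rats do not interleave, so any order of handling that follows these numbers cannot be told apart from exposure.

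PCB 52 is a polychlorinated biphenyl (PCB) of the lower-chlorinated, non-dioxin-like kind, found in indoor and outdoor air. In liver, PCBs of this kind are known as ligands or activators of the nuclear receptors CAR and PXR, which raise cytochromes P450 of the Cyp2b and Cyp3a families, whereas dioxin-like PCBs act through the AhR receptor on Cyp1a genes. The liver also makes most secreted plasma proteins through the endoplasmic reticulum (ER) and Golgi, and it makes hepcidin, the hormone that closes iron export from gut and macrophages. Hepcidin transcription is known to be raised by bone morphogenetic protein (BMP) signalling and by inflammatory STAT signalling.

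Of the genes tested, 8652 of 10535 had a promoter sequence in the RefSeq table of the rat assembly GRCr8. As examples 3 are printed, from gene groups described below: hepcidin, an ER chaperone and an immediate early gene. All 3 were printed with a motif that they hold, so they do not stand for their groups. Each is the 250 bases before the annotated start, 5′ to 3′ on the gene's strand. Capitals mark matches to short motifs searched on both strands. In Hamp at chr1:95300272-95300521 (minus strand) they mark GGCGCC, the core of the known BMP element, 129 to 124 bases before the start, and TTCNNNGAA, the STAT pattern, 117 to 109 bases before it. In Hsp90b1 at chr7:23012294-23012543 (minus strand) they mark the ER stress element, CCAAT and CCACG with 9 bases between them, which was found at 176 to 158 and, reversed, at 72 to 54 bases before the start. In Jund at chr16:18769772-18770021 (minus strand) they mark TGACGTCA, the cAMP response element, 221 to 214 bases before the start.
Hamp: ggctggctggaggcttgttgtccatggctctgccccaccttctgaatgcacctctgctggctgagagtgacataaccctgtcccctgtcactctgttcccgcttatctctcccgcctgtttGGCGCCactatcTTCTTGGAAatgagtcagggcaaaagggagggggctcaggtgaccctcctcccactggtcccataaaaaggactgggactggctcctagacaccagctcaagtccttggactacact
Hsp90b1: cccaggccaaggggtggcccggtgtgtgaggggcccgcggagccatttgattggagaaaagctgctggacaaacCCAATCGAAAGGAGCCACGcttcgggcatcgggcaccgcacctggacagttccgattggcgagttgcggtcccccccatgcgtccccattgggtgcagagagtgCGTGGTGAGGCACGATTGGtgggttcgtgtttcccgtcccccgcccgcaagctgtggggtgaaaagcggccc
Jund: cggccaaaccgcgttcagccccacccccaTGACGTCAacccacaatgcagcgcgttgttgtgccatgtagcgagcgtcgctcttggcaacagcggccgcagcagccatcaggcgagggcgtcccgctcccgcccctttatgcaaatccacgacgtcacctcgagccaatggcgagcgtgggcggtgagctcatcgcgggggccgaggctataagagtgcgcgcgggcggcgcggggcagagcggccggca

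The ER stress element was present in 7 of 17 promoters of ER chaperone genes (41.2%), Calr, Canx, Creld2, Dnajc3, Hsp90b1, Hspa5 and Xbp1, against 16 of 8652 promoters of all genes tested (0.185%). It was present in 0 of 30 promoters of translocon and ER-to-Golgi transport genes. TGACGTCA was present in 4 of 18 promoters of immediate early genes, Btg2, Dusp1, Ier2 and Jund (22.2%), against 2.88% of all promoters. GGCGCC was present in 3 of 10 promoters of iron and hepcidin genes, Hamp, Smad7 and Tfrc, against 16.6% of all, and TTCNNNGAA in 2 of 10, Hamp and Hjv, against 6.01%. None of these motifs overlapped another in the printed promoters, and a match describes letters only.

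The libraries held between 6994832 and 9185511 counts, given below as counts per 1000000 (CPM). The tissue was liver by its markers, since 9 hepatocyte genes together took from 142858 to 200980.3 CPM in sham and from 148543 to 196101 CPM in exposed animals. Within groups the libraries were spread along 1 main direction, the leading principal component, called the axis here; no label corresponds to it. Each library was scored with the weights of the other sex, as a difference from the sham mean of its own sex. The sign was set so that animals 14 and 16 scored positive on average, so their side of the axis is a choice. On this axis animals 13, 14, 15 and 16, all exposed, scored 11.4, 13.3, 10.4 and 15.3, above every sham animal. Sham scores ran from −4.99 to 9.10, with animals 11 and 12 highest at 9.10 and 7.88. The other 8 exposed animals scored from −4.11 to 6.99, within the sham range. Most gene lists and leading genes are therefore also given without animals 13 to 16, which leaves 8 exposed and 12 sham animals. The r with the axis is the within-group correlation of a gene's log2 CPM with the score. The part that the axis plays in any result was not tested.

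Across both sexes, differences between exposed and sham livers were small, with more genes at a low unadjusted p than chance alone gives. Hepcidin (Hamp), the apolipoprotein genes Apoa1 and Apoa5 and the gluconeogenic enzyme Pck1 ranked near the top by p on the lower side, and genes of ER-to-Golgi transport on the higher side. None passed the threshold of an adjusted p under 0.05 in edgeR's quasi-likelihood fit (0 of 10535 genes, 0%). At an adjusted p under 0.10 there were 22 genes, 13 higher and 9 lower (0.209% of genes tested), and the smallest adjusted p was 0.0855. This count of 22 was 1 without animals 13 to 16, 2 with 1 surrogate variable and 0 with consecutive animals as a block, and leaving out 1 library moved it between 0, for example without animal 1, 13 or 16, and 173, without animal 20. An unadjusted p under 0.05 was reached by 848 genes that were higher (8.05%) and 777 that were lower (7.38%), 1625 in all where chance alone gives 527. DESeq2, run as an alternative, called 105 genes at an adjusted p under 0.05 (0.997%), 61 higher and 44 lower, and limma-voom called 0. Leaving out 1 library at a time gave 0 genes by edgeR in all but 3 cases: 15 without animal 20, an exposed female, 2 without animal 12, a sham female (Uggt1 and Hamp), and 1 without animal 18, an exposed female (Akr1c13). Without animals 13 to 16 the edgeR count was 0 of 10618, with 851 genes at an unadjusted p under 0.05. With 1 surrogate variable 828 genes had that p. Genes are not independent of each other, so the excess over chance does not count affected genes.

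**Figure D1:**
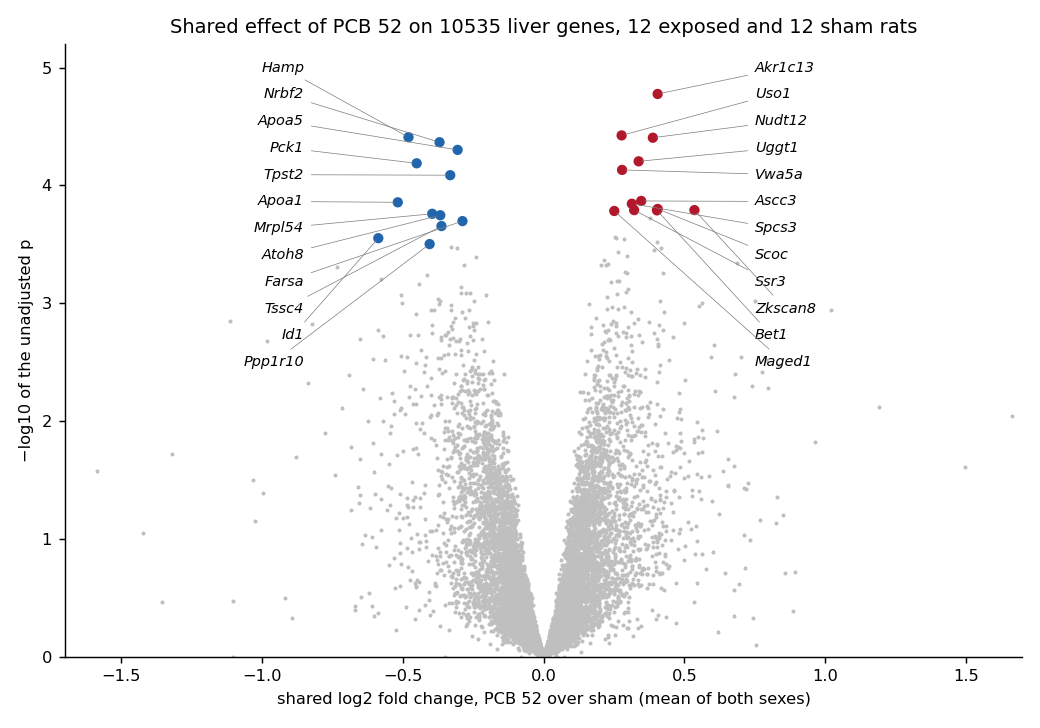
Shared log2 fold change of PCB 52 over sham (x axis) against −log10 of the unadjusted p (y axis) for 10535 genes, with 2 genes beyond the x axis not drawn. The 12 higher genes (red) and 12 lower genes (blue) with the smallest p are named, and their log2 fold changes lie between −0.59 and 0.54.

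The gene with the smallest p on the lower side was Hamp, which encodes hepcidin. In females Hamp ran from 508 to 807 (median 674) CPM in sham and from 396 to 719.8 (median 454) CPM in exposed livers. In males it ran from 424 to 697 (median 529) CPM in sham and from 298 to 437 (median 396) CPM in exposed livers. In both sexes the exposed livers sat low: 5 of 6 exposed females lay under the lowest sham female, animal 20 being the exception at 719.8 CPM, and 3 of 6 exposed males lay under the lowest sham male. The shared log2 fold change was −0.48 ± 0.10 (SE, 95% interval −0.68 to −0.28, adjusted p = 0.0855), the same in females (−0.48) and males (−0.48). With animals 13 to 16 left out, it was −0.38 ± 0.11, and r with the axis was −0.76. In bulk tissue a lower level can come from fewer cells of a type or from less RNA per cell, and these cannot be told apart here.

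Id1, an inhibitor of basic helix-loop-helix factors and a known direct BMP target, ran from 7.48 to 12.6 (median 8.57) CPM in sham and from 3.86 to 8.71 (median 6.40) CPM in exposed females. In males Id1 ran from 3.43 to 7.27 (median 4.70) CPM in sham and from 2.37 to 4.45 (median 3.14) CPM in exposed livers. All 12 exposed livers lay under the sham mean of their sex, with the ranges overlapping by 1 female and 2 male exposed livers. Its log2 fold change was −0.59 ± 0.14 (adjusted p = 0.112). It stood at −0.60 without animals 13 to 16, and its r with the axis was 0.01.

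Atoh8, a transcription factor that is known to act on the hepcidin promoter, ran from 47.8 to 60.4 (median 54.5) CPM in sham and from 28.3 to 48.5 (median 40.5) CPM in exposed females. Levels in males ran from 29.4 to 48.5 (median 41.0) CPM in sham and from 25.7 to 36.4 (median 33.6) CPM in exposed livers. The groups separated more in females, where 5 of 6 exposed livers lay under every sham liver, than in males, where 1 of 6 did. Its log2 fold change was −0.37 ± 0.09 (adjusted p = 0.0944; −0.34 without animals 13 to 16).

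The gene lists here and below were chosen with earlier results of these data known, so their counts describe and do not test. This holds also where a share over all genes is set beside them. Over the iron and hepcidin list of 15 genes, 10 were lower and 5 higher. An unadjusted p under 0.05 was reached by 6 of them, all lower (7.38% of all genes). The median log2 fold change was −0.09, against 0.01 over all genes. Besides the 3 genes above, the lower ones were Fth1, the ferritin heavy chain (−0.17 ± 0.06, adjusted p = 0.195), and Tfr2 and Smad7, named, like Smad6, after their values were seen. Tfr2, a transferrin sensor upstream of hepcidin, stood at −0.13 ± 0.06 and the feedback inhibitors of BMP signalling Smad7 and Smad6 at −0.25 ± 0.12 and −0.15 ± 0.16. Also named after their values were seen, the ligand Bmp6 stood at 0.05 ± 0.15, its co-receptor Hjv at 0.17 ± 0.14 and the iron exporter Slc40a1 at 0.15 ± 0.08. Without animals 13 to 16, 4 of the 15 genes had an unadjusted p under 0.05, all lower (4.11% of all genes), and the median was −0.03. The members ran against the axis, with a median r of −0.55. Among 17 acute phase genes, made by the liver in inflammation, 13 were higher and 4 lower, with a median of 0.04 and values up to 1.66. An unadjusted p under 0.05 was reached by 3 higher genes, Lcn2, Cp and A2m (8.05% of all genes), and by 1 lower gene, Hamp (7.38%). Without animals 13 to 16, 7 were higher and 10 lower with a median of −0.03. At that p there were then 0 higher and 1 lower (3.91% and 4.11% of all genes).

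**Figure D2:**
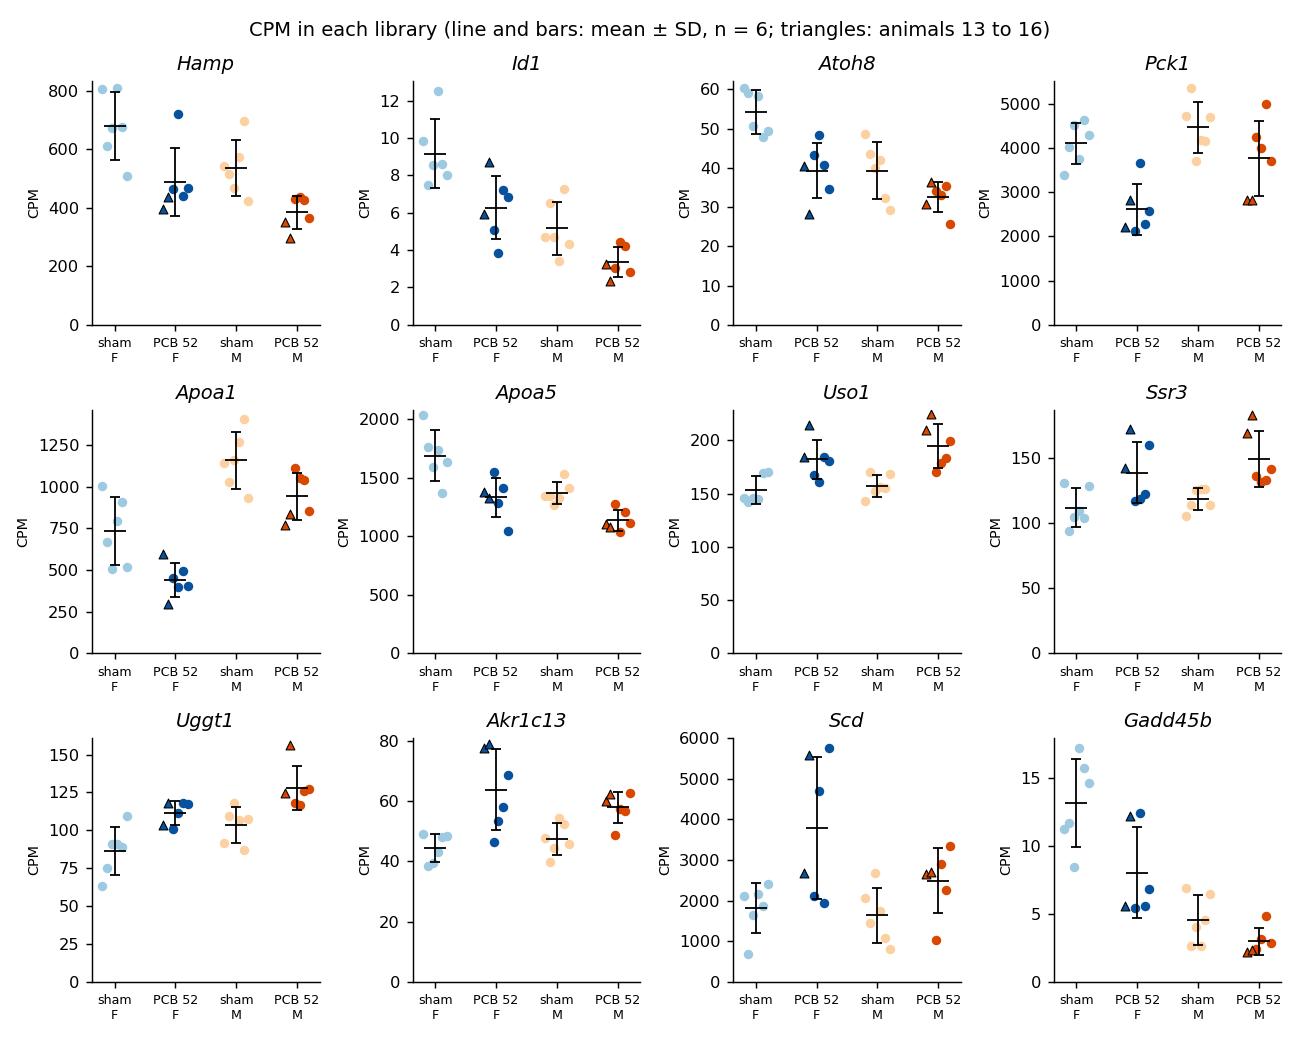
CPM in each of the 24 libraries for 12 genes named in the text, by group on the x axis, with the mean ± SD of 6 animals and with animals 13 to 16 as triangles. Exposed livers of both sexes sit low for Hamp, Id1, Apoa1 and Apoa5 and high for Uso1, Ssr3, Uggt1 and Akr1c13, with overlap between the groups in at least 1 sex for each gene.

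Genes of the early secretory pathway were higher in exposed livers. Of 33 genes of the ER translocon and of ER-to-Golgi transport, 31 had a positive log2 fold change, where 5434 of all 10535 genes did. An unadjusted p under 0.05 was reached by 14 of them, all higher (8.05% of all genes). An adjusted p under 0.10 was reached by 4, all higher (0.209% of all genes in both directions). The median log2 fold change was 0.11, and 29 of the 33 had the same sign in both sexes. When animals 13 to 16 were left out, the median was 0.09, 27 were higher and 6 lower, and 13 had an unadjusted p under 0.05, all higher (3.91% of all genes).

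Uso1, a tether that catches vesicles arriving at the Golgi, ran from 142 to 171 (median 146) CPM in sham and from 161 to 215 (median 182) CPM in exposed females. In males it ran from 143 to 170.3 (median 156) CPM in sham and from 171 to 225 (median 191) CPM in exposed livers. All 6 exposed males lay above every sham male, which held in males for 0.218% of all genes in either direction, and 4 of 6 exposed females lay above every sham female. Its log2 fold change was 0.28 ± 0.06 (adjusted p = 0.0855). Uso1 ran closely with the axis (r = 0.85) and stood at 0.20 ± 0.05 without animals 13 to 16.

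Ssr3, a subunit of the complex that sits beside the translocon, ran from 93.9 to 131 (median 107) CPM in sham and from 117 to 172 (median 132) CPM in exposed females. In males Ssr3 ran from 105 to 126 (median 119.6) CPM in sham and from 131 to 183 (median 139) CPM in exposed livers. Males did not overlap here either, while 3 of 6 exposed females were within the sham range. Ssr3 had a log2 fold change of 0.32 ± 0.07 (adjusted p = 0.0944; 0.20 without animals 13 to 16).

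Spcs3, a subunit of the signal peptidase that trims nascent secreted proteins, had a log2 fold change of 0.31 ± 0.07 (adjusted p = 0.0944). Bet1, a SNARE of ER-to-Golgi vesicles, had one of 0.40 ± 0.09 (adjusted p = 0.0944). For both genes 4 of 6 exposed females lay above every sham female, and in males 3 of 6 did for Spcs3 and 5 of 6 for Bet1. Without animals 13 to 16 these values were 0.20 and 0.28. The 2 genes of the list below 0 were Srprb at −0.06 ± 0.05 and Ssr4 at −0.02 ± 0.06, named after their values were seen.

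Folding factors of the ER lumen stood on the same side, at smaller sizes. Of 20 ER chaperone and unfolded protein response genes, 16 were higher and 4 lower, 9 had an unadjusted p under 0.05, all higher (8.05% of all genes), and the median was 0.10. It was 0.07 without animals 13 to 16, with 5 genes at that p, all higher (3.91% of all genes). Hsp90b1, the ER member of the Hsp90 chaperone family whose promoter is printed above, ran from 577 to 703 (median 604) CPM in sham and from 608 to 924 (median 696) CPM in exposed females. Levels in males ran from 668 to 817 (median 711) CPM in sham and from 713 to 1035 (median 842) CPM in exposed livers. In each sex 3 of 6 exposed livers lay above every sham liver and the rest overlapped, with a log2 fold change of 0.24 ± 0.07 (adjusted p = 0.146; 0.16 without animals 13 to 16).

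Hyou1, an ER chaperone of the Hsp70 type, stood at 0.28 ± 0.08, and the disulfide isomerases Pdia3 and Pdia4 at 0.17 ± 0.06 and 0.16 ± 0.06. Their adjusted p was 0.146, 0.188 and 0.208 by edgeR. Uggt1, the glucosyltransferase that recognises misfolded glycoproteins in the ER, is in neither list and was among the 12 higher genes with the smallest p. It ran from 63.1 to 109.7 (median 89.9) CPM in sham and from 101 to 118 (median 114) CPM in exposed females, and from 87.1 to 118 (median 107) CPM in sham and from 116 to 156 (median 125) CPM in exposed males. 2 exposed females and 1 exposed male overlapped the sham range, and the log2 fold change was 0.34 ± 0.07 (adjusted p = 0.0855; 0.30 without animals 13 to 16).

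**Figure D3:**
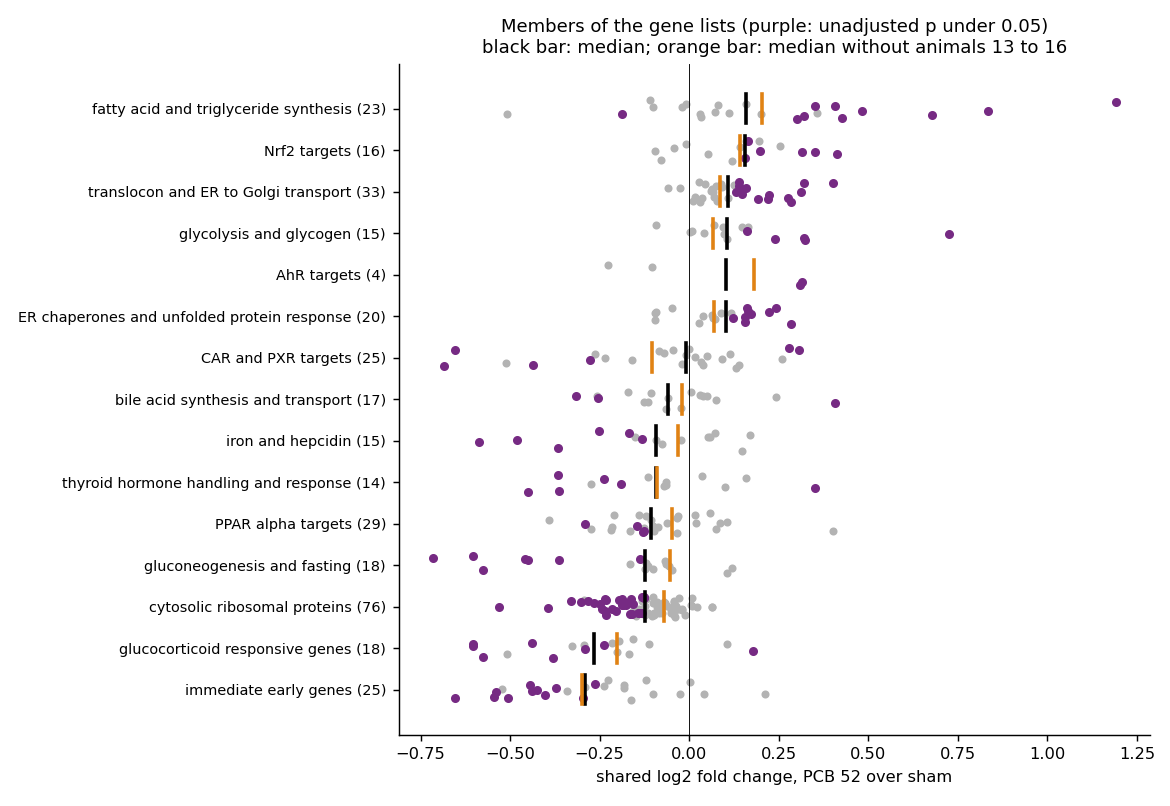
Shared log2 fold change (x axis) of the members of 15 gene lists, with the number of members tested in brackets, black bars for medians and orange bars for medians without animals 13 to 16. Members with an unadjusted p under 0.05 are purple; 14 of 33 translocon and transport genes lie on the higher side and 11 of 25 immediate early genes on the lower side.

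The apolipoprotein genes Apoa1 and Apoa5 were lower in exposed livers of both sexes. Apoa1, the main protein of high-density lipoprotein, ran from 503 to 1005 (median 732) CPM in sham and from 294 to 593 (median 428) CPM in exposed females. In males Apoa1 ran from 931 to 1407 (median 1151) CPM in sham and from 771.2 to 1113 (median 944) CPM in exposed livers. Every exposed liver was under the sham mean of its sex, and 5 of 6 exposed females and 3 of 6 exposed males lay under the lowest sham liver. Its log2 fold change was −0.52 ± 0.12 (adjusted p = 0.0944; −0.47 without animals 13 to 16).

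Apoa5, which promotes the clearance of plasma triglycerides, ran from 1371 to 2035 (median 1689) CPM in sham and from 1049 to 1553 (median 1357) CPM in exposed females. In males Apoa5 ran from 1267 to 1534 (median 1345) CPM in sham and from 1036 to 1276 (median 1112) CPM in exposed livers. Again all 12 exposed livers were under the sham mean of their sex, 3 females and 5 males being under every sham liver. Apoa5 had an r with the axis of −0.17, and its log2 fold change of −0.31 ± 0.06 (adjusted p = 0.0855) was −0.30 ± 0.08 without animals 13 to 16. Apoa2, also of high-density lipoprotein, stood at −0.12 ± 0.09 (adjusted p = 0.516).

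Enzymes of fatty acid and triglyceride synthesis were mostly higher. Of 23 genes, 17 were higher and 6 lower, with a median log2 fold change of 0.16. An unadjusted p under 0.05 was reached by 9 on the higher side (8.05% of all genes) and by 1 on the lower side (7.38%), Dgat1, a triglyceride synthesis enzyme named after its values were seen (−0.19 ± 0.07). With animals 13 to 16 left out, the median was 0.20 and 8 genes reached that p, all higher (3.91% of all genes). The median stood at 0.15 in females and 0.09 in males, a gap that was not tested, and no member reached an adjusted p under 0.10.

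Scd, the desaturase that makes monounsaturated fatty acids, ran from 675 to 2402 (median 1993) CPM in sham and from 1932 to 5756 (median 3685) CPM in exposed females. In males it ran from 816 to 2682 (median 1592) CPM in sham and from 1022 to 3353 (median 2679) CPM in exposed livers. Exposed livers of 1 group differed widely here, and 4 of 6 exposed females and 3 of 6 exposed males lay above every sham liver. Scd had a log2 fold change of 0.84 ± 0.25 (95% interval 0.31 to 1.36, adjusted p = 0.173; 0.77 without animals 13 to 16). Pklr, the liver pyruvate kinase that feeds carbon into lipid synthesis, stood at 0.32 ± 0.09 (adjusted p = 0.146; 0.34 without animals 13 to 16).

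The acetyl-CoA carboxylases Acaca and Acacb stood at 0.41 ± 0.13 and 0.30 ± 0.10, with an adjusted p of 0.173 and 0.188 by edgeR. Acacb stood at 0.57 in females and 0.04 in males. Acly, which makes cytosolic acetyl-CoA, stood at 0.48 ± 0.17 and Fasn, fatty acid synthase, at 0.43 ± 0.20. Thrsp, a lipogenic gene that responds to thyroid hormone, had a value of 0.16 ± 0.11 and an interval that spans 0 (−0.08 to 0.39). Srebf1, the factor that drives many of these enzymes, stood at −0.11 ± 0.12, and was named after its values were seen.

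Genes of gluconeogenesis and fasting were mostly lower. Of 18 genes, 16 were lower and 2 higher, 7 had an unadjusted p under 0.05, all lower (7.38% of all genes), and the median was −0.12. Without animals 13 to 16 the median was −0.05, 13 genes were lower and 5 higher, and 3 had that p, all lower (4.11% of all genes). In females the median was −0.23 and in males −0.09.

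Pck1, the rate-limiting enzyme of gluconeogenesis, ran from 3396 to 4636 (median 4155) CPM in sham and from 2112 to 3664 (median 2423) CPM in exposed females. In males Pck1 ran from 3706 to 5346 (median 4448) CPM in sham and from 2819 to 4991 (median 3851) CPM in exposed livers. Exposed females lay under the sham females except for 1 animal, whereas 3 of 6 exposed males were within the sham range. The log2 fold change was −0.45 ± 0.10 (adjusted p = 0.0855; −0.36 without animals 13 to 16), and its female and male values were −0.65 and −0.25.

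Igfbp1, an insulin-repressed binding protein of growth factors, ran from 233 to 518 (median 386) CPM in sham and from 111 to 353 (median 246) CPM in exposed females. Levels in males ran from 43.0 to 144 (median 98.9) CPM in sham and from 34.1 to 127 (median 48.7) CPM in exposed livers, the highest exposed male being animal 21. The groups overlapped in both sexes, and the log2 fold change was −0.72 ± 0.24 (adjusted p = 0.197; −0.64 without animals 13 to 16). Tat, a tyrosine-degrading enzyme induced by glucocorticoids, stood at −0.60 ± 0.18 (adjusted p = 0.164) and G6pc1, which releases glucose from its phosphate, at −0.36 ± 0.15 (adjusted p = 0.266), or −0.43 and −0.27 without animals 13 to 16.

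Genes of glycolysis and glycogen were on the other side. Of 15 genes, 14 were higher and 1 lower, 5 had an unadjusted p under 0.05, all higher (8.05% of all genes), and the median was 0.11. It was 0.07 without animals 13 to 16, with 3 genes at that p, all higher (3.91% of all genes). Pklr is counted both here and among the genes of fatty acid and triglyceride synthesis. Gbe1, the glycogen branching enzyme, stood at 0.24 ± 0.06 (adjusted p = 0.136) and Ugp2, which makes the glucose donor of glycogen, at 0.32 ± 0.11 (adjusted p = 0.188). Ugp2 ran with the axis (r = 0.73) and stood at 0.20 without animals 13 to 16.

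Immediate early genes, which are transcribed within minutes of a signal reaching the cell, were lower in exposed livers of both sexes. Of 25 genes, 22 were lower and 3 higher, and 11 had an unadjusted p under 0.05, all lower (7.38% of all genes). The median log2 fold change was −0.29, with −0.34 in females and −0.25 in males. It was −0.30 without animals 13 to 16, where 8 members had an unadjusted p under 0.05, all lower (4.11% of all genes).

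Gadd45b, a stress-responsive gene that CAR activators are also known to induce, ran from 8.43 to 17.2 (median 13.1) CPM in sham and from 5.46 to 12.4 (median 6.22) CPM in exposed females. In males it ran from 2.64 to 6.86 (median 4.30) CPM in sham and from 2.21 to 4.86 (median 2.60) CPM in exposed livers. Exposed livers were low in both sexes, 11 of 12 being under the sham mean of their sex. Its log2 fold change was −0.65 ± 0.19 (95% interval −1.04 to −0.26, adjusted p = 0.146; −0.61 without animals 13 to 16).

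Jund, an AP-1 subunit whose promoter is printed above, ran from 50.3 to 111 (median 95.4) CPM in sham and from 58.2 to 90.2 (median 62.6) CPM in exposed females. In males Jund ran from 37.8 to 66.0 (median 53.8) CPM in sham and from 28.8 to 54.5 (median 42.0) CPM in exposed livers. No exposed female lay outside the sham range, and 3 of 6 exposed males lay under it. Jund had a log2 fold change of −0.40 ± 0.13 (adjusted p = 0.176; −0.30 without animals 13 to 16) and an r with the axis of −0.72.

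Rhob, a small GTPase of the endosome, stood at −0.26 ± 0.09 and Hes1, a repressor downstream of Notch, at −0.37 ± 0.13, with an adjusted p of 0.188 and 0.188 by edgeR. In females no exposed liver overlapped a sham liver for Hes1, which held in females for 0.380% of all genes in either direction. In males no exposed liver lay outside the sham range of Hes1 on the lower side. Fos and Egr1, named after their values were seen as the best known of these genes, stood at −0.02 ± 0.44 and 0.0025 ± 0.39, with wide errors.

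Glucocorticoid responsive genes were also mostly lower. Of 18 genes, 16 were lower and 2 higher, with 7 lower and 1 higher at an unadjusted p under 0.05 (7.38% and 8.05% of all genes), and the median was −0.26. This median was −0.53 in females and −0.01 in males, and −0.20 without animals 13 to 16, where 3 genes had that p, all lower (4.11% of all genes). The gap between the sexes was not tested for the list. Of the 18 genes, 10 had the same sign in both sexes. The 7 lower genes are not all new to the account. Tat and Sds are also counted in the fasting list, Dusp1 among the immediate early genes and Klf9 in the thyroid hormone list. The higher gene was the glucocorticoid receptor Nr3c1 itself, named after its values were seen (0.18 ± 0.08).

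Nfkbia, the inhibitor of NF-kappa B, stood at −0.29 ± 0.10 (adjusted p = 0.188) with like values in females (−0.27) and males (−0.31). Dusp1, a phosphatase of MAP kinases that is also an immediate early gene, stood at −0.44 ± 0.16 (adjusted p = 0.219), with all 12 exposed livers under the sham mean of their sex. Tsc22d3, a glucocorticoid-induced anti-inflammatory gene, stood at −0.38 ± 0.15, made up of −0.68 in females and −0.09 in males.

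The gene with the smallest p of all was Akr1c13, an aldo-keto reductase of the hydroxysteroid dehydrogenase type. It ran from 38.6 to 49.1 (median 45.6) CPM in sham and from 46.4 to 79.0 (median 63.4) CPM in exposed females. Levels in males ran from 39.9 to 54.3 (median 46.9) CPM in sham and from 48.6 to 62.7 (median 58.8) CPM in exposed livers. In each sex 5 of 6 exposed livers lay above every sham liver, and the log2 fold change was 0.40 ± 0.08 (95% interval 0.24 to 0.57, adjusted p = 0.0855; 0.30 without animals 13 to 16). The gene has close relatives, so its counts are uncertain where reads were shared with them.

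The other higher genes with the smallest p had varied functions. They were Nudt12, a hydrolase of NADH and NAD-capped RNA (0.39 ± 0.08), Vwa5a (0.28 ± 0.06), Ascc3, a helicase (0.35 ± 0.08), Scoc, a Golgi protein tied to autophagy (0.41 ± 0.09), Zkscan8, a zinc finger factor (0.54 ± 0.12), and Maged1 (0.25 ± 0.06). Their adjusted p lay between 0.0855 and 0.0944. Nudt12, Vwa5a, Ascc3, Scoc and Zkscan8 ran with the axis (r from 0.64 to 0.83). Maged1 ran the other way (r = −0.48), and its value without animals 13 to 16 was the larger one, 0.32 ± 0.06. There it had the smallest adjusted p of all genes by edgeR, 0.0814, and was the only 1 under 0.10. Values without these animals are not given here for Nudt12, Vwa5a, Ascc3, Scoc and Zkscan8.

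The other lower genes with the smallest p were Nrbf2, a subunit of the autophagy lipid kinase complex (−0.37 ± 0.08), Tpst2, a Golgi sulfotransferase of tyrosines (−0.33 ± 0.07), Mrpl54, a mitochondrial ribosomal protein (−0.40 ± 0.09), Farsa (−0.29 ± 0.07), Tssc4 (−0.36 ± 0.09) and Ppp1r10, a nuclear regulator of protein phosphatase (−0.40 ± 0.10). Their adjusted p lay between 0.0855 and 0.113. Nrbf2 was made up of −0.60 in females and −0.14 in males. Its groups did not overlap in females, which held there for 0.380% of all genes in either direction. It stood at −0.43 without animals 13 to 16, a setting not given here for the other lower genes of this paragraph. Tssc4 showed the reverse, with −0.13 in females and −0.60 in males. Farsa encodes the alpha subunit of phenylalanyl-tRNA synthetase, and the gene of its beta subunit, Farsb, named after its values were seen, stood on the opposite side at 0.38 ± 0.09 (adjusted p = 0.0944). The gene spans of these subunits were 9.58 and 59.2 kb, and r with the axis was −0.59 and 0.54.

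Genes of cytosolic ribosomal proteins were lower by small amounts. Of 76 genes, 70 were lower and 6 higher, 30 had an unadjusted p under 0.05, all lower (7.38% of all genes), and the median was −0.12. Rpl36 stood at −0.39 ± 0.11, Fau, whose product is fused to a ribosomal protein, at −0.33 ± 0.09, Rpl8 at −0.23 ± 0.07 and Rps23 at −0.20 ± 0.06, each with an adjusted p between 0.146 and 0.173 by edgeR. The list ran against the axis, with a median r of −0.44 and an r of −0.85 for Fau. With animals 13 to 16 left out, the median was −0.07, 74 genes were lower and 2 higher, and 10 had an unadjusted p under 0.05, all lower (4.11% of all genes). Ribosomal protein genes have many processed copies, so their counts are uncertain.

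The shared log2 fold change also ran with gene length. Across 10504 genes its Spearman correlation with gene span in RefSeq was 0.338 (0.210 without animals 13 to 16), 0.321 for the female values and 0.252 for the male values. Genes are not independent replicates, and all of them come from the same 24 libraries. Higher genes with an unadjusted p under 0.05 had a median span of 38.6 kb and lower ones 9.17 kb, against 23.1 kb over all genes. Genes up to the lower quartile of span, 9.96 kb, had a median log2 fold change of −0.07 and those past the upper quartile, 53.2 kb, one of 0.07, or −0.04 and 0.04 without animals 13 to 16. Hamp, Apoa1, Id1 and Jund span 1.94, 1.78, 1.17 and 1.68 kb, and Uggt1 and Ascc3 span 113 and 283 kb. These genes all go with the correlation, and the spans of most other named genes are not given here. The weights of genes on the library axis correlated with span in the same way (rho 0.362). The part of span in the values of single genes was not tested.

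**Figure D4:**
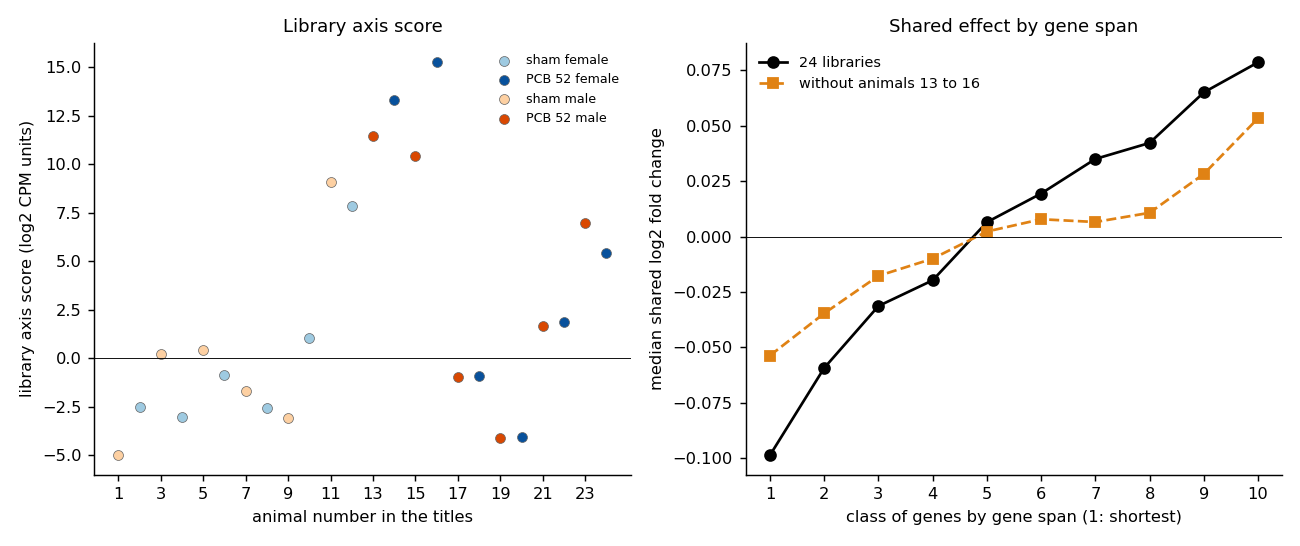
Left, the library axis score (y axis, log2 CPM units) of each animal by its number in the titles (x axis), with animals 13 to 16 between 10.4 and 15.3. Right, the median shared log2 fold change (y axis) in 10 equal classes of genes ordered by gene span (x axis), for 24 libraries and without animals 13 to 16; it goes from −0.10 in the shortest class to 0.08 in the longest with 24 libraries.

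The genes through which PCBs are best known to act did not lead the shared effect. Of 25 CAR and PXR targets, 11 were higher and 14 lower, with a median of −0.01. An unadjusted p under 0.05 was reached by 2 on the higher side and 4 on the lower (8.05% and 7.38% of all genes). Of these targets 7 were higher and 18 lower when animals 13 to 16 were left out, with a median of −0.10. At that p there were then 1 higher and 4 lower (3.91% and 4.11% of all genes). Cyp2b1 and Cyp2b2, the classic CAR targets, are nearly identical paralogs, so the split of reads between them is uncertain. Cyp2b2 ran from 4.17 to 32.3 (median 12.99) CPM in sham and from 1.21 to 86.4 (median 13.1) CPM in exposed females. In males it ran from 36.4 to 254 (median 90.3) CPM in sham and from 63.0 to 121 (median 106) CPM in exposed livers. A single exposed female, animal 14 at 86.4 CPM, lay above every other female, and no exposed male was above the sham mean. The shared log2 fold change of Cyp2b2 was 0.04 ± 0.49 with an interval of −0.99 to 1.07, and it was −0.46 without animals 13 to 16. That of Cyp2b1 was 0.26 ± 0.44 with an interval of −0.66 to 1.17, an interval that includes a 2-fold higher level.

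Cyp3a23-3a1, the main PXR target in rat, was measured more closely, at −0.08 ± 0.13 with an interval of −0.36 to 0.19. Cyp1a1 and Cyp1a2, the AhR targets, stood at −0.23 ± 0.28 (interval −0.81 to 0.36) and −0.10 ± 0.09 (interval −0.30 to 0.09). Ugt1a1, which conjugates bilirubin and thyroxine, stood at −0.07 ± 0.09 (interval −0.25 to 0.11). These 4 intervals span 0.

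Among the members with the smallest p, Abcc2, the canalicular export pump of conjugates, was higher (0.28 ± 0.09), while Cyp3a18 (−0.44 ± 0.14) and the efflux pump Abcb1b (−0.68 ± 0.27) were lower. The female and male values of Cyp3a18 were −0.73 and −0.14, and those of Abcb1b were −1.42 and 0.05. Nqo1, a quinone reductase induced through both AhR and Nrf2, ran from 18.6 to 24.5 (median 21.5) CPM in sham and from 21.8 to 41.5 (median 25.1) CPM in exposed females. In males Nqo1 ran from 6.29 to 8.60 (median 7.003) CPM in sham and from 7.75 to 10.8 (median 8.38) CPM in exposed livers. All 12 exposed livers lay above the sham mean of their sex, with 3 females and 2 males above every sham liver, and the log2 fold change was 0.31 ± 0.10 (adjusted p = 0.168; 0.27 without animals 13 to 16). Ugt1a6, a phenol glucuronosyltransferase of the same AhR list, stood at 0.31 ± 0.10 (adjusted p = 0.173). Of the 4 AhR targets tested, 2 were higher and 2 lower, and 4 were higher without animals 13 to 16.

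Of 16 targets of Nrf2, the sensor of oxidants and electrophiles, 12 were higher and 4 lower, with a median of 0.16 (0.14 without animals 13 to 16). An unadjusted p under 0.05 was reached by 6, all higher (8.05% of all genes), and by 3 without these animals, all higher (3.91%). They included Nqo1, Gclm of glutathione synthesis (0.20 ± 0.09) and Me1, the malic enzyme that makes NADPH (0.35 ± 0.15), which is also counted as a lipogenic gene. Of the receptors and their partners, 9 genes, 3 were higher and 6 lower with a median of −0.10 and 0 at an unadjusted p under 0.05. Without animals 13 to 16 their median was −0.0047 and 2 had that p, both higher (3.91% of all genes), Arnt (0.19) and Ppara (0.28), named after their values were seen. CAR itself, Nr1i3, stood at −0.27 ± 0.18.

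Lipid oxidation, bile acid and thyroid hormone genes had smaller or mixed values. Of 29 PPAR alpha targets, 22 were lower and 7 higher with a median of −0.11, and 4 had an unadjusted p under 0.05, all lower (7.38% of all genes). They included Hadha (−0.13 ± 0.05) and Acadvl (−0.12 ± 0.05) of fatty acid oxidation and Plin2, a lipid droplet protein (−0.29 ± 0.12). Without animals 13 to 16 the median was −0.05 and 1 gene had that p, on the lower side (4.11% of all genes). Of 17 bile acid genes, 7 were higher and 10 lower (median −0.06), with 1 higher and 2 lower at an unadjusted p under 0.05 (8.05% and 7.38% of all genes). These were 6 and 11 without animals 13 to 16 (median −0.02), with 0 and 2 at that p (3.91% and 4.11% of all genes). The phospholipid exporter Abcb4 (−0.26 ± 0.09) and the sterol exporters Abcg5 (−0.32 ± 0.12) and Abcg8 (−0.26 ± 0.13) were on the lower side and Cyp7b1, a hydroxylase of oxysterols (0.41 ± 0.16), on the higher. Cyp7a1, which starts the classic bile acid pathway, stood at −0.11 ± 0.24 with an interval of −0.61 to 0.38.

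Of 14 genes of thyroid hormone handling and response, 10 were lower and 4 higher (median −0.09), with 5 lower and 1 higher at an unadjusted p under 0.05 (7.38% and 8.05% of all genes). The median was −0.09 also without animals 13 to 16, with 3 lower and 1 higher at that p (4.11% and 3.91% of all genes). Besides Pck1 and G6pc1 these included Ttr, the thyroxine carrier transthyretin (−0.19 ± 0.08), and Bcl3 (−0.37 ± 0.16). In females Ttr ran from 4504 to 7517 (median 5628) CPM in sham and from 4137 to 6289 (median 4660.3) CPM in exposed livers, and in males from 6007 to 7838 (median 6353) and from 4926 to 6613 (median 6319.8) CPM, with 3 of 6 exposed females and 2 of 6 exposed males under the lowest sham liver.

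Females and males were then set beside each other. Across 10535 genes the log2 fold changes of the sexes, which share no animal, correlated with a Pearson r of 0.306 and a Spearman rho of 0.399, and 7020 genes (66.6%) had the same sign. When animals 13 to 16 were left out, these values were 0.153, 0.195 and 58.0%, and with all genes regardless of their counts Pearson r was 0.0313. Animals 13 to 16 include 2 exposed animals of each sex, so they enter both sets of values. The lists varied in this, beside 66.6% of all genes. The same sign in both sexes was found for 29 of 33 transport genes, 22 of 25 immediate early genes and 14 of 15 iron genes. It was found for fewer members of other lists: 12 of 25 CAR and PXR targets, 10 of 18 glucocorticoid responsive genes, 10 of 16 circadian clock genes and 3 of 14 cell cycle genes. No gene kept exposed and sham livers fully apart in females and in males at once (0 of 10535).

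A difference between the female and the male effect passed for 0 genes by edgeR at an adjusted p under 0.05, and 239 genes (2.27%) had an unadjusted p under 0.05, where chance gives 527. A missed threshold does not show that the sexes respond alike. The genes with the smallest p for this difference were Camlg, Ldhb and Etv5, and their shared values were near 0 or uncertain. Camlg stood at −0.40 in females and 0.18 in males, Ldhb, a lactate dehydrogenase subunit, at 0.55 and −0.59, and Etv5, an ETS transcription factor, at 0.63 and −0.20.

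**Figure D5:**
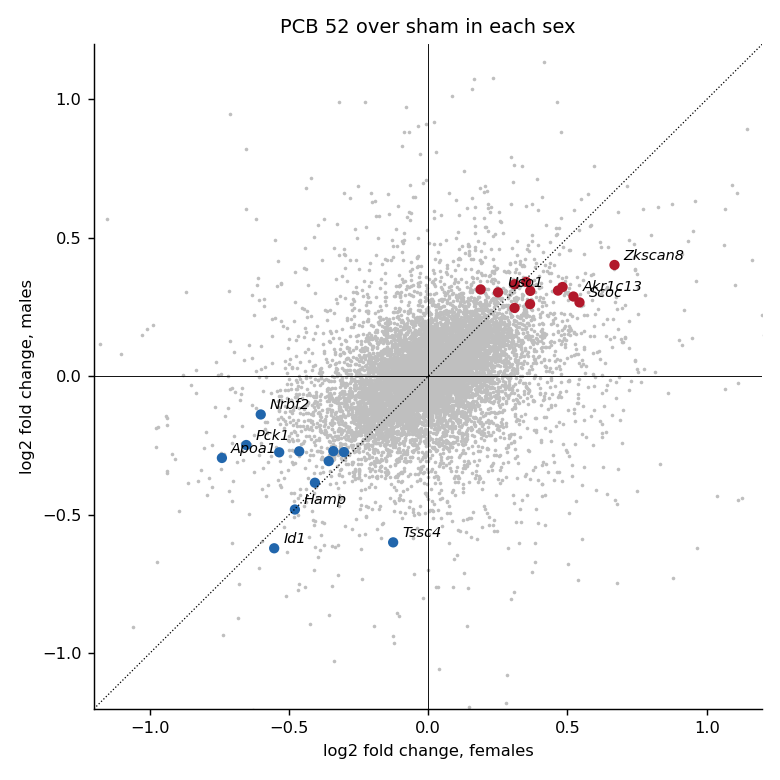
Log2 fold change of PCB 52 over sham in females (x axis) against males (y axis) for the genes tested, with 47 genes beyond 1.2 on either axis not drawn and the 24 named genes in colour. Hamp and Id1 lie near the dotted line of equal values, Nrbf2 and Pck1 lie farther out in females and Tssc4 farther out in males.

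Markers of other cell types were read from lists for the cells that a piece of liver can hold. Kupffer cell and macrophage markers (13 genes, median −0.07) summed to between 675 and 1076 CPM in sham and 664 and 966 CPM in exposed livers. Of these, Adgre1 on the higher side and C1qa and C1qb on the lower had an unadjusted p under 0.05 (8.05% and 7.38% of all genes), and 0 did without animals 13 to 16. Sinusoidal endothelial markers (10 genes, median 0.06) summed to 463 to 703 CPM in sham and 523 to 698 CPM in exposed livers, and stellate cell markers (15 genes, median −0.01) to 314 to 706 and 415 to 593 CPM. These sums overlapped between exposed and sham. Erythroid markers, a sign of blood left in the tissue, were lower in 4 of 4 genes tested (median −0.37, and −0.64 without animals 13 to 16), from 51.7 to 214 CPM in sham and from 21.4 to 208 CPM in exposed livers, with 0 at an unadjusted p under 0.05. Of the adipocyte markers Lep and Plin1 were at 0 in all libraries, and Cidec and Fabp4 were detected, the list summing to 47.5 to 82.0 CPM in sham and 53.9 to 75.2 CPM in exposed livers. Of the pancreatic acinar markers Prss1 was at 0 and Cela1, Cpa1 and Cpb1 were detected, the list summing to 15.2 to 134 CPM in sham and 16.2 to 206 CPM in exposed livers, with Cela1 at an unadjusted p under 0.05 (−0.30 ± 0.14). No neutrophil marker had enough counts to be tested. Periportal hepatocyte markers had a median of −0.06 over 10 genes, among them Pck1, and pericentral markers one of −0.01 over 8 genes. The part of cell composition in the values above was not tested.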

How the data were processed

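Gene counts were deposited by the authors as 1 table per sex, per the labels. The submitters' processing notes name FastQC, HISAT2 and the rat build rn6; the counting tool, annotation and strand setting are not given in the sources used here. The labels name both poly(A) capture and rRNA removal, and which was used is not clear. The tables were joined by gene identifier (15319). Of these, 89 had no symbol, at most 2.30% of a library's counts. They were kept in the counts and passed over only when genes were named. Totals were 6994832 to 9185511 counts, and no pair of replicates agreed within sampling noise. The labels name separate rats.

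Counts were tested with edgeR 4.0.16 in R 4.3.3 (TMM scaling, filterByExpr with a minimum count of 10, robust quasi-likelihood fit of 4 group means), and the mean of the female and male contrasts was adjusted by Benjamini-Hochberg with a threshold of 0.05. The scripts were tested on simulated data. Alternatives used DESeq2 1.42.0, limma 3.58.1 and sva 3.50.0. The 12 genes on each side with the smallest p, a panel of 14 genes, up to 4 members of each list described and 3 genes of the sex difference were named by rule; a few of these are not reported here. The members and lists were chosen with earlier results of these data known. Promoters and gene spans came from RefSeq GRCr8, matched by gene, with no coordinates converted. Animals have no pairing in the labels.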

Additional observations from a re-analysis of the deposited data

Results flagged for a closer look

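Among 81 named genes in 4 groups of 6 animals, 19 of 324 sets had a single animal set apart from its group by Dixon's criterion, where chance gives about 1 in 20. Each value is followed by the nearest other animal of the group, in CPM.

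In exposed females, animal 20 stood high for Hamp (719.8, next 467.1) and Tpst2 (37.0, next 28.0) and low for Camlg (6.15, next 8.05) and Abcg8 (15.4, next 23.5). Animal 14 stood high for Cyp2b1 (5.69, next 1.56) and Cyp2b2 (86.4, next 14.3). In exposed males, animal 15 stood high for Uggt1 (156.3, next 127.0) and Fasn (783.9, next 349.4), and animal 21 for Tpst2 (31.1, next 25.03), Gadd45b (4.86, next 3.18) and Igfbp1 (127.0, next 58.7). Animal 17 stood high for Ppp1r10 (34.6, next 26.3) and animal 13 for Nqo1 (10.8, next 8.85).

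In sham females, animal 12 stood high for Ugp2 (351.7, next 256.5) and Hsp90b1 (703.1, next 620.3), animal 2 for Tssc4 (20.4, next 15.8) and animal 6 for Gclm (117.9, next 83.2). In sham males, animal 1 stood low for Ugt1a6 (16.8, next 21.8) and animal 11 for Fau (126.7, next 157.3).

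Ldhb, a lactate dehydrogenase subunit, had all 6 exposed females above and all 6 exposed males below the sham mean of their sex. Its female-minus-male difference in log2 fold change was 1.14 ± 0.32 (SE), which did not pass the edgeR test of the difference over all genes (adjusted p = 0.99997).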

How the results depend on the processing

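The number of genes with a shared effect was 0 by edgeR, 22 at an adjusted p under 0.10 and 105 by DESeq2, which called 21 of the 24 genes with the smallest p. Leaving out 1 library gave 0 to 15, and 0 to 173 at an adjusted p under 0.10. At that looser threshold the 22 became 1 without animals 13 to 16, 2 with 1 surrogate variable or the axis score, 10 by limma-voom, and 0 with consecutive animals as a block or averaged. At an unadjusted p under 0.05 there were 1625 genes, 828 with 1 surrogate variable, 851 without animals 13 to 16, 1021 in the female table alone, 585 in the male table alone, 869 with each library's axis score in the model (chosen after seeing the data), and 1310 to 1919 when 1 library was left out. The correlation between the sexes was 0.0313 without a filter on low counts, 0.153 without animals 13 to 16 and 0.228 to 0.329 when 1 library was left out. The cause was not tested.

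The 24 genes with the smallest p kept their sign under every alternative run. Their choice by p in these same libraries made this likely in advance. Among the other named genes 9 changed sign under at least 1 alternative, and all such log2 values follow. Cyp2b2 was −0.082 by limma-voom, −0.0072 in the additive model, −0.15 with 1 surrogate variable, −0.46 without animals 13 to 16, −0.25 with consecutive animals as a block, −0.24 over means of consecutive animals, −0.38 in males alone and −0.21 with the axis score. Cyp2b1 was −0.034 in the additive model, −0.12 with the block, −0.078 over means and −0.32 in males alone. Cyp1a1 and Cyp1a2 were 0.0013 and 0.0080 with 1 surrogate variable and 0.094 and 0.0092 without animals 13 to 16. Ldhb was 0.035 in the additive model and 0.55 in females alone. In males alone Cyp3a23-3a1 was 0.017, Camlg 0.18, Etv5 −0.21 and Abcb1b 0.046. With 1 library left out, Cyp2b1 ran from −0.25 to 0.41, Cyp2b2 from −0.61 to 0.21 and Ldhb from −0.084 to 0.024.

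No paired analysis was possible because the labels pair no animals; consecutive animals taken as a block (consensus correlation 0.178) took the 22 genes at an adjusted p under 0.10 to 0 and the smallest adjusted p from 0.0855 to 0.232, or 0.339 over their means. Expression under a few CPM, as for Cyp2b1, is limited by depth.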

Other observations

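Other gene groups of liver defence and metabolism gave mixed values. Of 16 genes of MHC and antigen presentation, 14 were lower and 2 higher with a median shared log2 fold change of −0.12, and −0.07 without animals 13 to 16. RT1-A1 and RT1-DMa had an unadjusted p under 0.05, both on the lower side (7.38% of all genes). Of 17 interferon response genes, 14 were higher and 3 lower with a median of 0.14, and 0.01 without animals 13 to 16, when 10 were higher and 7 lower. Their median r with the library axis was 0.51. An unadjusted p under 0.05 was reached by 2 genes with all libraries, both higher (8.05% of all genes), Ifit2 among them. Without these animals it was reached by 0 genes.

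Of 25 genes of cholesterol synthesis, 13 were higher and 12 lower (median 0.01). Nsdhl alone had an unadjusted p under 0.05, on the higher side (8.05% of all genes). Without animals 13 to 16 the median was 0.03, with 0 higher and 1 lower at that p (3.91% and 4.11% of all genes). Of 16 circadian clock genes, 9 were higher and 7 lower (median 0.06). With all libraries Nr1d2 alone had an unadjusted p under 0.05, also on the higher side (8.05% of all genes). Without animals 13 to 16 the clock median was 0.04, with 2 higher and 2 lower at that p (3.91% and 4.11% of all genes). Of 14 cell cycle genes, 6 were higher and 8 lower (median −0.07, and −0.12 without animals 13 to 16). Their median was 0.26 in females and −0.27 in males, a gap that was not tested. Lymphocyte markers had a median of 0.12 over 6 genes and cholangiocyte markers one of −0.05 over 3 genes. Without animals 13 to 16 these medians were 0.06 and −0.06.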
